A study of Homo sapiens with 16 samples.

Results

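The 50 genes described here are a fixed list of cell cycle and DNA replication genes, found by symbol among the 25370 genes of the deposited count table. All 50 were present, and all 50 passed the filter on low counts that kept 16004 genes. The list was split by its own order into 26 genes that act mainly in G1 phase and at the start of DNA replication (G1/S, from CCND1 to SLBP) and 24 that act mainly in G2 phase and mitosis (G2/M, from CCNA2 to UBE2C). RNA-seq was performed in the human cell line HMC3, which was established from microglia, with 2 libraries for each of 8 conditions. Cells were given vehicle, estradiol (E2, 0.1 nM), ketamine (400 nM), (2R,6R)-HNK (400 nM), (2S,6S)-HNK (400 nM), and each of these 3 drugs together with E2. HNK stands for hydroxynorketamine, and (2R,6R)-HNK and (2S,6S)-HNK are stereoisomers of each other and metabolites of ketamine. All cells, vehicle included, had been moved to medium with 5% charcoal-stripped serum and then to serum-free medium for 24 h, and the drugs were given for a further 24 h in medium free of serum and phenol red. Neither the labels nor the methods say whether the libraries that share a condition were grown as cultures of their own, so the p-values measure the spread between these libraries, which may be technical.

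A library held between 55300614 and 81646165 counts, and the lowest count of any of the 50 genes in any library was 602, for CCNE1. The spread between replicate libraries over all genes tested corresponded to a common biological coefficient of variation of 2.81%, so that small differences could pass the test. The markers that define microglia were largely absent: AIF1, CX3CR1, P2RY12, TMEM119, ITGAM, PTPRC, C1QA, C1QB and SPI1 did not pass the filter, and the medians of CSF1R and TREM2 were 0.732 and 0.750 CPM (counts of the gene scaled to the size of the library). CD68, a lysosomal gene of many cell types, had a median of 20.6 CPM. Genes of fibroblasts and other mesenchymal cells were high, with medians of 14923 CPM for FN1 and 4504 CPM for COL1A1, although COL3A1, LUM and DCN did not pass the filter. Over the libraries, the summed level of 12 microglia markers ranged from 18.7 to 25.2 CPM and that of 10 fibroblast or mesenchymal markers from 18797 to 24483 CPM, and their part in the results below was not tested.

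Progress through the cell cycle is driven by cyclin-dependent kinases. Cyclin D with CDK4 or CDK6, and then cyclin E with CDK2, phosphorylate the retinoblastoma protein and release E2F transcription factors, which switch on genes for nucleotide supply, origin licensing and DNA synthesis. Later, cyclins A and B with CDK1 drive entry into mitosis, and their genes are held down in resting cells by the DREAM complex and switched on by B-MYB and FOXM1. Cells that stop dividing lower both groups of transcripts. In bulk RNA, fewer cycling cells and less RNA per cycling cell cannot be told apart.

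The promoters of the members were searched for 3 kinds of motif on both strands, in the 250 bases before each gene's start in a table of RefSeq promoters (assembly GRCh38.p14), which held 21 of the 26 G1/S genes and 20 of the 24 G2/M genes. The E2F site was searched as TTTGGCGC, TTTCGCGC, TTTGCCGC and TTTCCCGC, the cell cycle homology region (CHR), which the DREAM complex binds, as TTTGAA and TTCGAA, and the CCAAT box as CCAAT. An E2F form was found before 11 of 21 G1/S genes (52.4%) and 0 of 20 G2/M genes, against 4.17% of the 11212 tested genes with a promoter in the table. The CHR was found before 2 of 21 G1/S genes (9.52%) and 10 of 20 G2/M genes, against 9.57% of tested genes. The CCAAT box stood before 12 of 21 G1/S and 16 of 20 G2/M genes, against 34.2%, and a CHR together with a CCAAT box before 9.52% and 45.0%, against 3.83%. In the promoter table as a whole (27305 windows of the same length), these shares were 2.79% for E2F, 14.6% for the CHR and 33.0% for the CCAAT box. Matches of different motifs overlapped in 1 place among the members. A match is a run of letters, not a measured binding site. Of the 10 G2/M genes with a CHR, 7 fell in all 7 treatments described below, as did 7 of the 10 without one, and of the 11 G1/S genes with an E2F form, 3 fell and 2 rose in all 7, against 4 and 0 of the 10 without, while 21.4% of all genes tested fell and 13.4% rose in all 7. The calls in this paragraph are as counted. After the correction for GC content and exon length described below, E2F1 rose in all 7 treatments, and PLK1 and KIF11 both fell in all 7. MCM6 then rose in 1 and fell in 6. Windows of 4 members are printed here to show both motif sets beside members that moved differently as counted, with matches in capitals: E2F1 (chr20:33686386-33686635, minus strand), which rose in all 7 treatments, MCM6 (chr2:135876444-135876693, minus strand), which fell in all 7, PLK1 (chr16:23678639-23678888, plus strand), which rose in 5 and fell in 2, and KIF11 (chr10:92592880-92593129, plus strand), which fell in all 7.
E2F1: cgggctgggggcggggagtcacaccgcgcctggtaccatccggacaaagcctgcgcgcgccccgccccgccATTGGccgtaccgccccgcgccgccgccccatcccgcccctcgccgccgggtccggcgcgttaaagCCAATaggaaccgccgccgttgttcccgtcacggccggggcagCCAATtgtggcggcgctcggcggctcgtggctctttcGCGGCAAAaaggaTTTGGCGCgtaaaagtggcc
MCM6: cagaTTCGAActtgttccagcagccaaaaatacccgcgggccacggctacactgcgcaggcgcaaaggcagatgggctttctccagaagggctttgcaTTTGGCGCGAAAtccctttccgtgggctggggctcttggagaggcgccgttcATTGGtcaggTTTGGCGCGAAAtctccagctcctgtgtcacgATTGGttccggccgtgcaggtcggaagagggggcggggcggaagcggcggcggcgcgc
PLK1: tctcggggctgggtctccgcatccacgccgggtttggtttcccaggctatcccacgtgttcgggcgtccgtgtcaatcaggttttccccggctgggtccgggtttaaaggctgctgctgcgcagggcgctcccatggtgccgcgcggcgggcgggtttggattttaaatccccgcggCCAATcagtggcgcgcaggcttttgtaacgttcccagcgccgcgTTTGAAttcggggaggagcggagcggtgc
KIF11: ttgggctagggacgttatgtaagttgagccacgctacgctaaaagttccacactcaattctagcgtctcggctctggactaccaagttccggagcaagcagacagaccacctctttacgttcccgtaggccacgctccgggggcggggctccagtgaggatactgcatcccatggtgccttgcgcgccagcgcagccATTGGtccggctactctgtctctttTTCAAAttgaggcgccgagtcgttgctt
In E2F1 the capitals mark 3 CCAAT boxes and 2 E2F forms, in MCM6 a CHR, 2 CCAAT boxes and 2 stretches that each hold 2 overlapping E2F forms, and in PLK1 and KIF11 a CCAAT box followed by a CHR. The CHR began 29 bases before the start of PLK1 and 28 bases before that of KIF11, and the CCAAT box began 73 and 53 bases before.

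Each of the 7 treatments was compared with vehicle to ask how the cell cycle genes responded to E2, to ketamine and to its metabolites, alone and with E2. A gene rose or fell where its adjusted p was under 0.05 in edgeR's quasi-likelihood test over all 16004 genes, with Benjamini-Hochberg adjustment. With E2 alone, 15 of the 50 rose and 31 fell, while 29.9% and 32.7% of all genes tested did so. With ketamine, 14 rose and 32 fell, against 26.8% and 32.5%. With (2R,6R)-HNK, 17 rose and 29 fell, against 31.7% and 34.9%, and with (2S,6S)-HNK 17 rose and 31 fell, against 32.1% and 35.8%. The combinations gave 15 rises and 32 falls for E2+ketamine (34.3% and 37.4% of all genes), 15 and 32 for E2+(2R,6R)-HNK (33.4% and 36.3%), and 6 and 39 for E2+(2S,6S)-HNK (24.01% and 35.7%). The share that rose was near the background in 6 treatments and lower for E2+(2S,6S)-HNK (6 of 50), and the share that fell was between 58.0% and 78.0%, above the background in each of the 7. The same 2 vehicle libraries enter all 7 comparisons.

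Most of these differences were small. The median log2 fold change of the 50 genes lay between -0.34 (E2+ketamine) and -0.15 ((2R,6R)-HNK), and that of all genes tested between -0.064 and -0.0027. A rise or fall by 1 or more on the log2 scale was found for 8 of the 50 with E2+ketamine (11.03% of all genes), 4 with E2+(2R,6R)-HNK (11.5%), 3 with (2R,6R)-HNK (3.75%), 2 with (2S,6S)-HNK (9.08%) and 1 with ketamine (3.56%). With E2 alone and with E2+(2S,6S)-HNK, 0 members reached it, where 1.81% and 5.85% of all genes did. All of the members that reached it had fallen. Over the 7 treatments, 25 members fell in every one (9 G1/S and 16 G2/M), while 21.4% of all genes tested did so. In each of the 7, 3 members rose (CDT1, E2F1 and CDC25B), where 13.4% of all genes did. A further 15 rose in some and fell in others. The share of all genes that did so is not given here, so this count is a description only. With upper-quartile normalization 20 members fell in all 7 and 6 rose in all 7, where 16.7% and 18.6% of all genes did.

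**Figure D1:**
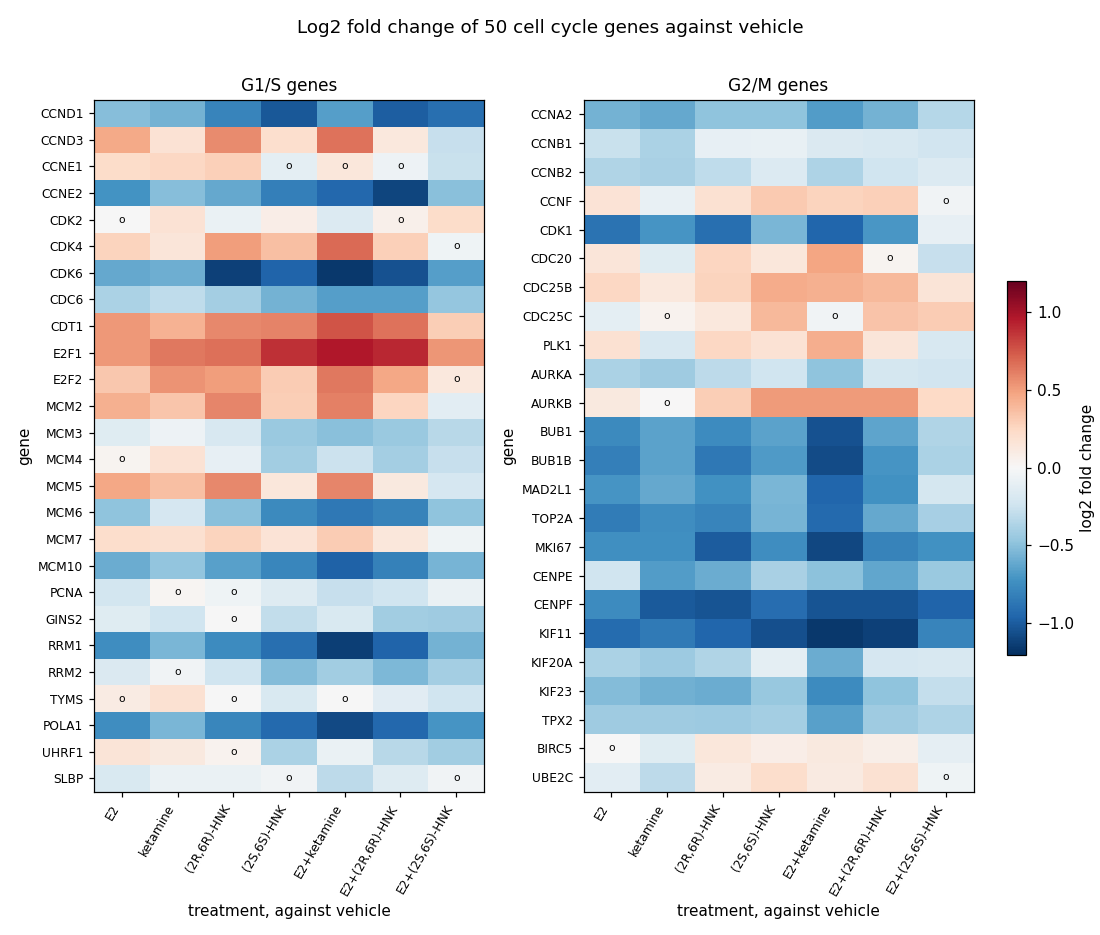
Log2 fold change against vehicle of the 26 G1/S genes (left) and 24 G2/M genes (right) in each of the 7 treatments, from blue (lower) to red (higher), with a small circle where the adjusted p was 0.05 or more. Some genes, such as CCND3 and PLK1, change colour between columns, while E2F1 and CDT1 are red in all 7 columns and CDK6, RRM1, POLA1, KIF11 and MKI67 are blue in all 7.

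The members' fold changes moved with the base composition of their transcripts, and this bears on every value below. Over the 50 genes, the log2 fold change against vehicle had a Spearman correlation with the GC content of the gene's exons of 0.88 for E2, 0.85 for E2+ketamine, 0.85 for (2R,6R)-HNK, 0.80 for E2+(2R,6R)-HNK, 0.79 for ketamine, 0.77 for (2S,6S)-HNK and 0.55 for E2+(2S,6S)-HNK. These are descriptions across genes that share libraries and vehicle, not tests. GC content ran from 34.8% (CENPE) to 64.3% (CDT1), with a median of 50.9% in the G1/S genes, 46.1% in the G2/M genes and 48.7% in all genes tested. When each library was corrected for trends with GC content and exon length, the correlations lay between -0.091 and 0.37. The correction removes a response of the cells that follows GC content as well as a bias of the amplified libraries, and these cannot be told apart. Corrected values are therefore given after the counted ones for most of the genes described.

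After the correction, falls still outnumbered rises in each treatment. 8 members rose and 34 fell with E2 (15.4% and 22.7% of all genes), 9 and 35 with ketamine (17.9% and 31.01%), 9 and 32 with (2R,6R)-HNK (20.2% and 25.4%), and 8 and 30 with (2S,6S)-HNK (25.3% and 31.5%). With E2 added, the corrected counts were 8 and 34 for ketamine (23.9% and 28.4%), 6 and 34 for (2R,6R)-HNK (25.7% and 33.5%), and 5 and 37 for (2S,6S)-HNK (22.4% and 34.03%). The corrected median of the 50 genes lay between -0.23 and -0.14. Of the 25 genes that fell in all 7 treatments as counted, 15 also did so after the correction (7 G1/S and 8 G2/M), and of the 3 that rose in all 7, E2F1 did. In all, 22 members fell and 1 rose in all 7 after the correction, where 11.9% and 4.94% of all genes did.

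**Figure D2:**
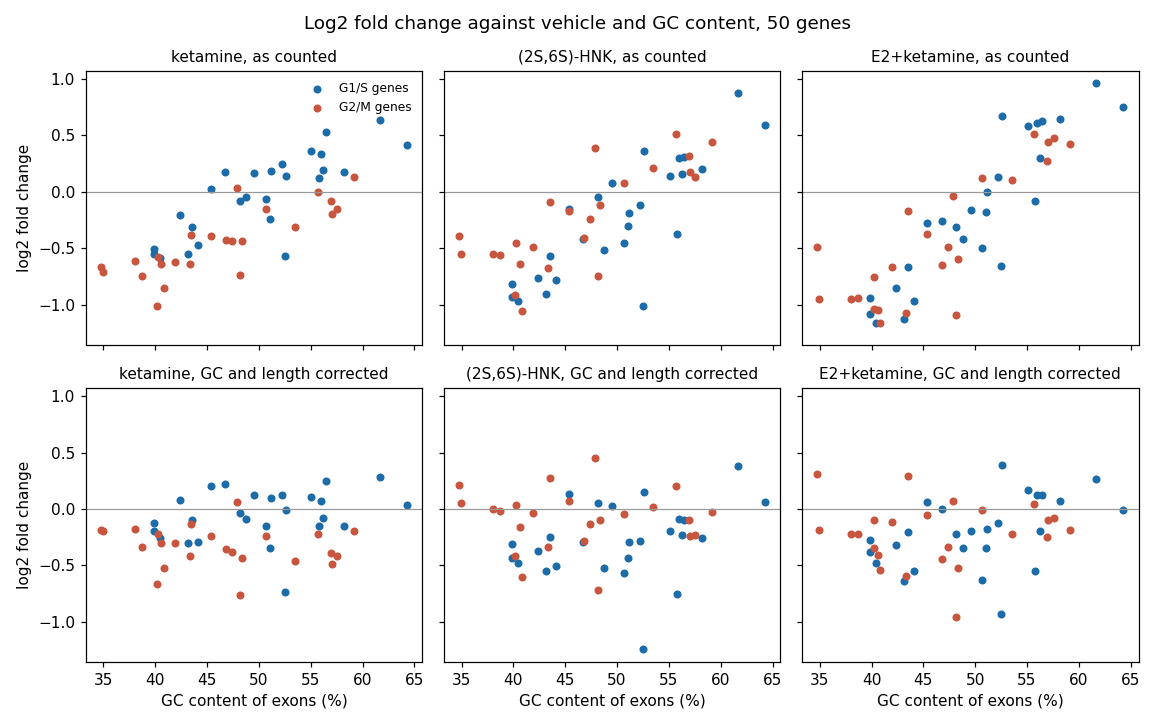
Log2 fold change against vehicle (vertical axis) against the GC content of the gene's exons in percent (horizontal axis) for the 50 genes, G1/S in blue and G2/M in red, for ketamine, (2S,6S)-HNK and E2+ketamine. In the upper panels, as counted, genes of low GC lie mostly below 0 and those of highest GC above it, and in the lower panels, after correction, this slope is nearly gone while most genes stay below 0.

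Among the genes that start the cycle, CCND1, CDK6 and CCNE2 fell in all 7 treatments while CCND3 and CDK4 rose in 6. CCND1 (ENSG00000110092, chromosome 11, 69455924 to 69469242, plus strand, GRCh37 as for all gene positions given here, the promoter windows apart) encodes cyclin D1, which carries growth factor signals to CDK4 and CDK6. CCND1 was measured at 369.8 and 374 CPM in vehicle, 264 and 259 in E2, 249 and 253 in ketamine, 216 and 214 in (2R,6R)-HNK, and 187 and 181 in (2S,6S)-HNK. With E2 added to the drugs, CCND1 stood at 232 and 239 CPM in E2+ketamine, 188 and 187 in E2+(2R,6R)-HNK, and 202 and 194 in E2+(2S,6S)-HNK. All 14 treated libraries were below both vehicle libraries, and the (2S,6S)-HNK libraries were lowest. Its log2 fold change was -1.01 ± 0.027 (SE) with (2S,6S)-HNK, -0.79 ± 0.027 with (2R,6R)-HNK, -0.57 ± 0.026 with ketamine and -0.51 ± 0.027 with E2 (edgeR's quasi-likelihood test, Benjamini-Hochberg adjusted p of 2.80e-22 or less in all 7 treatments). The GC content of CCND1 (52.5%) is above the median, and after correction its fold changes were larger, from -1.24 to -0.68.

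CDK6 (ENSG00000105810, chromosome 7, 92234235 to 92465887, minus strand), a kinase partner of the D cyclins with exons of 40.4% GC, was at 262 and 269.9 CPM in vehicle, 178 and 170.1 in E2, 177 and 176 in ketamine, 122 and 123 in (2R,6R)-HNK, and 142 and 131 in (2S,6S)-HNK. In the combinations CDK6 was at 121 and 117 CPM in E2+ketamine, 128 and 129 in E2+(2R,6R)-HNK, and 166 and 171 in E2+(2S,6S)-HNK. Vehicle was highest and E2+ketamine lowest, and no treated library reached a vehicle library. The log2 fold change of CDK6 ran from -0.59 ± 0.031 with ketamine to -1.16 ± 0.032 with E2+ketamine, and after correction from -0.17 to -0.56, still a fall in all 7. CDK4 (ENSG00000135446, chromosome 12, 58141510 to 58149796, minus strand), the other kinase partner, went the opposite way, at 263 and 262 CPM in vehicle, 312 and 319 in E2, 289 and 290.4 in ketamine, 373 and 370.4 in (2R,6R)-HNK, and 333 and 343 in (2S,6S)-HNK. Together with E2 its values were 418 and 420.5 CPM in E2+ketamine, 318 and 323 in E2+(2R,6R)-HNK, and 252 and 254 in E2+(2S,6S)-HNK. The 2 E2+(2S,6S)-HNK libraries were below vehicle and the other 12 treated libraries above it. CDK4 rose by 0.68 ± 0.024 on the log2 scale with E2+ketamine and had a log2 fold change of -0.050 ± 0.025 with E2+(2S,6S)-HNK, which did not pass the test. After correction it rose in 5 treatments, and fell in E2+(2S,6S)-HNK (-0.15). The exons of CDK4 overlap those of TSPAN31 on the other strand over 1369 bases, and the strand setting of the counting is not given in the sources used here, so reads of the 2 genes may be mixed. The same limit holds for other members with exon overlaps on the other strand. Among them are MCM2 (1113 bases with ENSG00000285600), CDK2 (565 with ENSG00000258554), PLK1 (553 with ENSG00000261266) and CCND1 (497 with LTO1).

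CCND3 (ENSG00000112576, chromosome 6, 41902672 to 42018095, minus strand), the gene of cyclin D3 with exons of 58.2% GC, was at 177 and 174 CPM in vehicle, 237 and 243 in E2, 199.9 and 197 in ketamine, 261 and 260.2 in (2R,6R)-HNK, and 203 and 199.6 in (2S,6S)-HNK. Its values were 269.6 and 280.5 CPM in E2+ketamine, 189.9 and 194 in E2+(2R,6R)-HNK, and 149 and 141 in E2+(2S,6S)-HNK when E2 was present. The E2+(2S,6S)-HNK libraries were the only ones below vehicle. CCND3 rose in 6 treatments, by up to 0.65 ± 0.028 with E2+ketamine, and fell with E2+(2S,6S)-HNK (-0.27 ± 0.029). After correction it rose in 3 and fell in 4 treatments, with ketamine at -0.15 and (2S,6S)-HNK at -0.26. CCNE1 and CCNE2 encode the E cyclins that activate CDK2. CCNE2 fell in all 7 treatments, from -0.50 with E2+(2S,6S)-HNK to -1.10 with E2+(2R,6R)-HNK, and in 5 of the 7 after correction. It shares 1629 bases of exon with INTS8 on the other strand. CCNE1 rose with E2, ketamine and (2R,6R)-HNK (0.22, 0.25 and 0.29), fell with E2+(2S,6S)-HNK (-0.27) and did not pass the test in the other 3. After correction it rose in none and fell in 3. CDK2 (ENSG00000123374, chromosome 12, 56360565 to 56366573, plus strand) had, with TYMS, the smallest largest change among the G1/S genes, at 148 and 151 CPM in vehicle, 149 and 149 in E2, 169 and 168 in ketamine, 140.4 and 142 in (2R,6R)-HNK, and 157 and 159 in (2S,6S)-HNK. With E2 and a drug, CDK2 was at 136 and 132 CPM in E2+ketamine, 156 and 156 in E2+(2R,6R)-HNK, and 171 and 178 in E2+(2S,6S)-HNK. The E2+(2S,6S)-HNK libraries were highest and the E2+ketamine libraries lowest, with log2 fold changes of 0.22 ± 0.029 and -0.16 ± 0.030 (0.21 and -0.19 after correction). Corrected, CDK2 rose in 2 treatments and fell in 2.

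E2F1 rose in all 7 treatments and E2F2 in 6 as counted. E2F1, which drives entry into S phase and carries 2 E2F forms in its own promoter window printed above, rose in all 7 treatments, from 0.52 with E2 to 0.96 with E2+ketamine, and after correction from 0.10 to 0.38. E2F2 rose in 6 treatments, by 0.31 to 0.63, and was at 0.12 with E2+(2S,6S)-HNK, which did not pass the test. After correction it passed only with ketamine (0.25). CDC6 and CDT1 load the MCM helicase on replication origins, and they moved apart. CDC6 fell in all 7 treatments (-0.31 to -0.66 as counted, -0.061 to -0.35 after correction). CDT1, whose exons have the highest GC content of the 50, rose in all 7 (0.29 to 0.75), but after correction it rose only with E2+(2R,6R)-HNK (0.073) and lay between -0.021 and 0.063 in the other 6.

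MCM2 to MCM7 form 1 ring-shaped helicase in which each subunit occurs once, and their transcripts did not move together. MCM2, MCM5 and MCM7, with exons of 56.0%, 55.1% and 56.2% GC, rose in 6 treatments and fell with E2+(2S,6S)-HNK. MCM3 and MCM6, at 50.6% and 42.4% GC, fell in all 7, and MCM4, at 46.8%, fell in 5 and rose with ketamine. MCM2 (ENSG00000073111, chromosome 3, 127317253 to 127341279, plus strand) was at 421 and 411 CPM in vehicle, 554 and 559.8 in E2, 524 and 525 in ketamine, 619 and 629 in (2R,6R)-HNK, and 499 and 522 in (2S,6S)-HNK. In the combinations with E2, MCM2 was at 629.6 and 637 CPM in E2+ketamine, 499 and 496 in E2+(2R,6R)-HNK, and 385 and 376 in E2+(2S,6S)-HNK. Of the 14 treated libraries, 12 were above vehicle and the 2 of E2+(2S,6S)-HNK below it. Its log2 fold change was 0.61 ± 0.023 with E2+ketamine and -0.13 ± 0.023 with E2+(2S,6S)-HNK (adjusted p 2.11e-28 and 4.83e-06, edgeR quasi-likelihood test, Benjamini-Hochberg). The fall with E2+(2S,6S)-HNK did not pass with upper-quartile normalization (-0.024) or in a fit of both groups alone (-0.057). After correction MCM2 rose in 4 treatments, by at most 0.23, and fell in 3, with (2S,6S)-HNK at -0.085 and E2+(2R,6R)-HNK at -0.15.

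MCM5 (ENSG00000100297, chromosome 22, 35796127 to 35821424, plus strand) showed the same order of conditions, at 349 and 350.4 CPM in vehicle, 486 and 481 in E2, 443 and 455 in ketamine, 516 and 528 in (2R,6R)-HNK, and 376 and 394 in (2S,6S)-HNK. With E2 it was at 521 and 528 CPM in E2+ketamine, 379 and 378 in E2+(2R,6R)-HNK, and 309.8 and 298 in E2+(2S,6S)-HNK. Its libraries too were above vehicle except for E2+(2S,6S)-HNK, with log2 fold changes of -0.20 ± 0.025 there and 0.58 ± 0.025 for (2R,6R)-HNK, and after correction it rose in 4 and fell in 3 treatments. MCM4 (ENSG00000104738) was at 524 and 534 CPM in vehicle, 545 and 539 in E2, 603 and 589.9 in ketamine, 490.4 and 496 in (2R,6R)-HNK, and 401 and 391 in (2S,6S)-HNK. The E2 combinations held 445 and 439 CPM in E2+ketamine, 395 and 402 in E2+(2R,6R)-HNK, and 436 and 438 in E2+(2S,6S)-HNK for MCM4. Ketamine was highest and (2S,6S)-HNK lowest, with log2 fold changes of 0.17 ± 0.022 and -0.42 ± 0.023, and E2 alone did not pass the test (0.036 ± 0.023), but did with DESeq2 (0.066) and upper-quartile normalization (0.10), with which the fall with (2R,6R)-HNK was lost (-0.023). After correction MCM4 rose in 3 treatments (E2, ketamine and (2R,6R)-HNK) and fell in 3. MCM3 fell by 0.060 to 0.50 on the log2 scale as counted and lay between -0.63 and -0.15 after correction. MCM6 fell by 0.20 to 0.85 as counted, and after correction it rose with ketamine (0.078) and fell in the other 6. MCM7, which holds the microRNA MIR93 in its locus and overlaps AP4M1 over 392 bases of exon on the other strand, rose by at most 0.30 as counted and fell in all 7 after correction. Corrected, all of MCM2 to MCM7 fell with (2S,6S)-HNK (-0.29 for MCM4, -0.085 for MCM2), with E2+(2R,6R)-HNK and with E2+(2S,6S)-HNK.

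**Figure D3:**
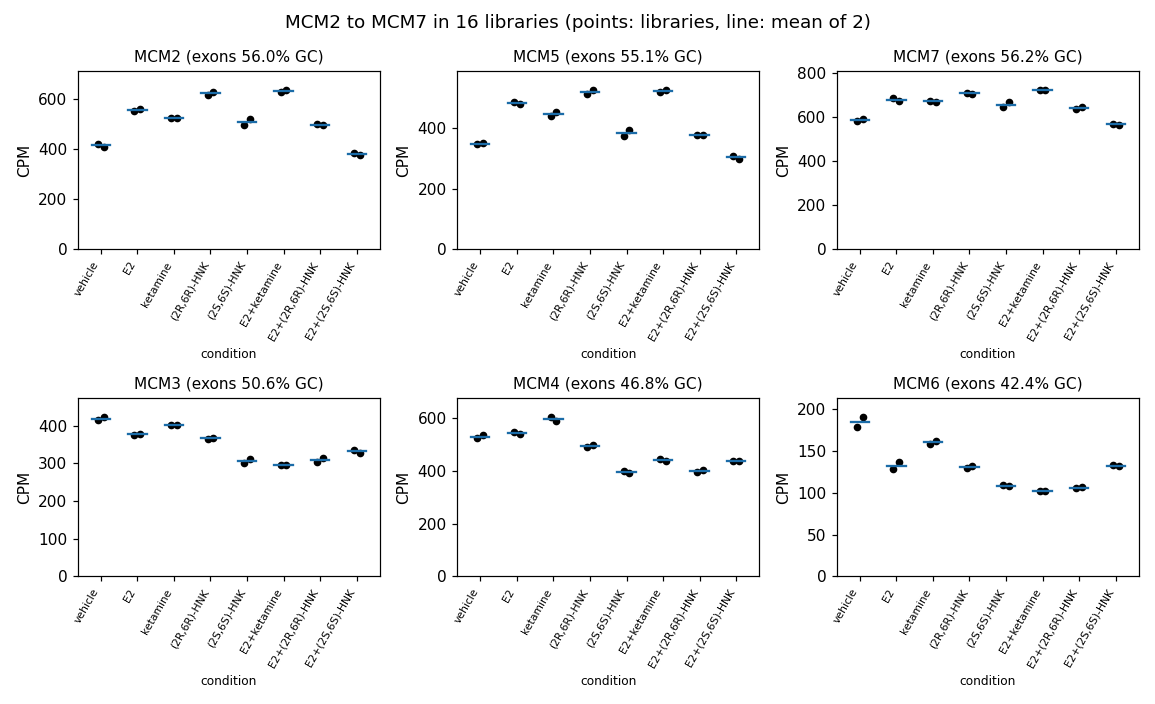
Level in CPM (vertical axis, from 0) of the 6 MCM helicase subunits in each of the 16 libraries (points) under the 8 conditions, with the mean of 2 libraries as a line and the GC content of the exons in each title. MCM2, MCM5 and MCM7 (upper row) stand above vehicle in all treatments but E2+(2S,6S)-HNK, and MCM3 and MCM6 (lower row) stand below vehicle in all treatments.

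MCM10 and GINS2 help turn the loaded MCM ring into an active helicase. MCM10 fell in all 7 treatments, by 0.47 to 0.97 on the log2 scale, and in all 7 after correction. GINS2 fell in 6 and did not pass the test with (2R,6R)-HNK (-0.0011 ± 0.038), and fell in all 7 after correction. RRM1 (ENSG00000167325, chromosome 11, 4115937 to 4160162, plus strand) encodes the large subunit of ribonucleotide reductase, the enzyme that supplies deoxynucleotides. RRM1 was at 359.8 and 366 CPM in vehicle, 218 and 217 in E2, 248 and 249 in ketamine, 214 and 216 in (2R,6R)-HNK, and 198 and 190.3 in (2S,6S)-HNK. Added to E2, the drugs left RRM1 at 163 and 169 CPM in E2+ketamine, 184 and 189.6 in E2+(2R,6R)-HNK, and 242 and 249 in E2+(2S,6S)-HNK. Every treated library was below vehicle, with E2+ketamine lowest. The log2 fold change of RRM1 was -1.13 ± 0.028 with E2+ketamine and -0.55 ± 0.027 with ketamine alone, and after correction it lay between -0.64 and -0.30. RRM2, the small subunit, fell in 6 treatments, by up to 0.54 on the log2 scale, and was at -0.043 with ketamine, which did not pass the test. After correction it fell in all 7, with ketamine at -0.088.

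POLA1 (ENSG00000101868, chromosome X, 24711990 to 25015103, plus strand), the catalytic subunit of the polymerase that starts each new strand, has exons of low GC content (39.8%). Its values were 84.6 and 86.8 CPM in vehicle, 50.4 and 52.0 in E2, 58.9 and 58.3 in ketamine, 49.8 and 49.6 in (2R,6R)-HNK, and 45.8 and 44.2 in (2S,6S)-HNK. In the presence of E2, POLA1 had 40.5 and 40.4 CPM in E2+ketamine, 44.6 and 44.6 in E2+(2R,6R)-HNK, and 51.3 and 53.8 in E2+(2S,6S)-HNK. The order of the conditions matched that of RRM1 at both ends, with vehicle highest and E2+ketamine lowest. POLA1 fell by 0.55 (ketamine) to 1.08 (E2+ketamine) on the log2 scale, and by 0.20 to 0.43 after correction. PCNA (ENSG00000132646, chromosome 20, 5095599 to 5107272, minus strand), the sliding clamp of the replicative polymerases and a textbook marker of proliferation, changed little, at 169 and 167 CPM in vehicle, 146 and 143 in E2, 171 and 172 in ketamine, 159.7 and 164 in (2R,6R)-HNK, and 154 and 148 in (2S,6S)-HNK. Its level with E2 was 140.4 and 138 CPM in E2+ketamine, 141 and 144 in E2+(2R,6R)-HNK, and 155 and 163 in E2+(2S,6S)-HNK. The ketamine libraries were just above vehicle and the other 12 treated libraries below it. PCNA fell in 5 treatments, at most by 0.28 ± 0.031 on the log2 scale with E2+ketamine. The call in E2+(2S,6S)-HNK (-0.084) was lost with DESeq2 (-0.067) and without vehicle 1 (-0.077) or E2+(2S,6S)-HNK 1 (-0.045), and in a fit of both groups alone (-0.012), and the value turned to 0.021 with upper-quartile normalization. After correction PCNA fell in none and rose in 4, at most by 0.20 with ketamine.

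TYMS (ENSG00000176890, chromosome 18, 657653 to 673578, plus strand), which makes thymidylate, was at 50.4 and 51.7 CPM in vehicle, 54.9 and 54.1 in E2, 59.1 and 57.1 in ketamine, 52.2 and 49.1 in (2R,6R)-HNK, and 45.3 and 44.6 in (2S,6S)-HNK. E2 combinations gave 51.5 and 50.4 CPM in E2+ketamine, 47.9 and 45.1 in E2+(2R,6R)-HNK, and 44.3 and 42.2 in E2+(2S,6S)-HNK for TYMS. Its treated libraries lay on both sides of vehicle, with ketamine highest (0.19 ± 0.043 on the log2 scale) and E2+(2S,6S)-HNK lowest (-0.24 ± 0.045). TYMS rose in 1 treatment and fell in 3 as counted, and rose in 1 and fell in 5 after correction, with (2R,6R)-HNK going from -0.0082 to -0.16 and E2+ketamine from -0.0028 to -0.18. With E2 it did not pass the test (0.095), but did under 5 alternatives (0.10 with halved counts to 0.16 with upper-quartile normalization). The fall with E2+(2R,6R)-HNK (-0.13) was lost without vehicle 2 (-0.12) or its library 2 (-0.093), and with upper-quartile normalization (-0.054). TYMS shares 967 bases of exon with ENOSF1 on the other strand. UHRF1, which keeps up DNA methylation behind the replication fork, rose with E2 and ketamine (0.16 and 0.12) and fell with (2S,6S)-HNK and all 3 combinations (down to -0.42), and fell in all 7 after correction. SLBP, which binds histone mRNAs, fell in 5 treatments, by at most 0.31 on the log2 scale, and in 2 after correction.

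Of the 24 G2/M genes, 16 fell in all 7 treatments (against 21.4% of all genes tested), among them CDK1, the cyclins A2, B1 and B2, the spindle checkpoint genes, TOP2A, MKI67 and the 4 kinesins KIF11, KIF20A, KIF23 and CENPE. CDC25B rose in all 7. CDK1 (ENSG00000170312, chromosome 10, 62538089 to 62554610, plus strand), the kinase of mitotic entry with exons of 34.9% GC, was at 136 and 143 CPM in vehicle, 77.6 and 73.1 in E2, 83.9 and 86.6 in ketamine, 74.5 and 74.3 in (2R,6R)-HNK, and 96.5 and 93.7 in (2S,6S)-HNK. With E2 and a drug the values were 72.1 and 71.7 CPM in E2+ketamine, 86.3 and 85.3 in E2+(2R,6R)-HNK, and 125 and 136 in E2+(2S,6S)-HNK. The treated libraries were below vehicle except for 1 of E2+(2S,6S)-HNK, which lay between the vehicle libraries. CDK1 fell by 0.95 ± 0.038 on the log2 scale with E2+ketamine and by 0.094 ± 0.036 with E2+(2S,6S)-HNK (adjusted p 6.53e-28 and 0.0207, edgeR quasi-likelihood test, Benjamini-Hochberg). The call in E2+(2S,6S)-HNK was lost with DESeq2, in a fit of both groups alone (-0.022) and when 1 of 2 libraries was left out (vehicle 2, -0.057, or E2+(2S,6S)-HNK 1, -0.037), and the value turned to 0.011 with upper-quartile normalization. After correction CDK1 fell in 4 treatments, by at most 0.31 with E2, and rose with E2+(2S,6S)-HNK (0.20). CCNB1 (ENSG00000134057, chromosome 5, 68462962 to 68474072, plus strand), cyclin B1, which activates CDK1, had 406 and 418 CPM in vehicle, 342 and 341 in E2, 315 and 318 in ketamine, 379.6 and 391 in (2R,6R)-HNK, and 388 and 385 in (2S,6S)-HNK. In the E2 combinations it had 374 and 359 CPM in E2+ketamine, 366 and 355 in E2+(2R,6R)-HNK, and 341 and 362 in E2+(2S,6S)-HNK. Every treated library was below vehicle, and the ketamine libraries were lowest. The log2 fold change of CCNB1 was -0.38 ± 0.026 with ketamine and -0.094 ± 0.026 with (2S,6S)-HNK. The call in (2S,6S)-HNK was lost with upper-quartile normalization (-0.019) and in a fit of both groups alone (-0.063), and that in (2R,6R)-HNK with upper-quartile normalization (-0.021). After correction it fell only with ketamine (-0.13) and rose in 5 treatments, by up to 0.29 with E2+ketamine. CCNA2 fell by 0.35 to 0.67 and CCNB2 by 0.16 to 0.39 on the log2 scale in all 7, and after correction in 5 and in 3.

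CCNF, an F-box cyclin, rose in 5 treatments, at most by 0.31, fell with ketamine (-0.085), and fell in all 7 after correction. CDC25B and CDC25C encode phosphatases that activate CDK1. CDC25B rose in all 7, by 0.13 to 0.44 as counted, and fell in 6 after correction, where it lay between -0.19 and -0.024. CDC25C rose with both metabolites, with and without E2, by up to 0.39, and after correction still rose in those 4 (0.19 to 0.45). It was at 0.038 with ketamine and -0.039 with E2+ketamine, neither past the test. With E2 it fell (-0.12 ± 0.050, adjusted p 0.0317, edgeR quasi-likelihood test, Benjamini-Hochberg), but after correction it was at -0.065 and did not pass. As counted, AURKB and PLK1, 2 mitotic kinases of high GC content, did not follow the other kinase genes of the G2/M class. PLK1 fell in all 7 treatments after correction, as AURKA did. AURKB rose in 6 treatments, by up to 0.51, and was at 0.0036 with ketamine. After correction it rose in 3, among them (2S,6S)-HNK (0.21), and fell in 3, among them ketamine (-0.22). AURKA fell in all 7 (-0.48 to -0.21) and in all 7 after correction, as did TPX2, the spindle protein that activates it (-0.65 to -0.37).

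PLK1 (ENSG00000166851, chromosome 16, 23688977 to 23701688, plus strand), whose promoter window with a CHR is printed above, was at 232 and 227 CPM in vehicle, 259 and 260.0 in E2, 201 and 199 in ketamine, 273 and 271 in (2R,6R)-HNK, and 255 and 262 in (2S,6S)-HNK. The combinations had 309 and 312 CPM in E2+ketamine, 254 and 254 in E2+(2R,6R)-HNK, and 204 and 198 in E2+(2S,6S)-HNK. Ketamine and E2+(2S,6S)-HNK were below vehicle, the other 10 treated libraries above it. PLK1 rose by 0.44 ± 0.026 with E2+ketamine and had -0.19 ± 0.026 with ketamine, and after correction it fell in all 7 (-0.49 to -0.094). CDC20 (ENSG00000117399, chromosome 1, 43824652 to 43828874, plus strand), the activator of the anaphase-promoting complex, had the same pattern at 259.7 and 262 CPM in vehicle, 284 and 295 in E2, 235 and 236 in ketamine, 312 and 313 in (2R,6R)-HNK, and 281 and 292 in (2S,6S)-HNK. Its E2 combinations were at 359 and 367 CPM in E2+ketamine, 271 and 264 in E2+(2R,6R)-HNK, and 216 and 213 in E2+(2S,6S)-HNK. CDC20 also fell with ketamine and E2+(2S,6S)-HNK (-0.15 ± 0.026 and -0.28 ± 0.026), rose most with E2+ketamine (0.48 ± 0.026), and fell in all 7 after correction (-0.46 to -0.079).

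UBE2C (ENSG00000175063, chromosome 20, 44441215 to 44445596, plus strand), the ubiquitin-conjugating enzyme of the same complex, had 265 and 259 CPM in vehicle, 239 and 239 in E2, 211 and 211 in ketamine, 275 and 287 in (2R,6R)-HNK, and 301 and 304 in (2S,6S)-HNK. When combined with E2, the drugs gave 281 and 283 CPM in E2+ketamine, 301 and 295 in E2+(2R,6R)-HNK, and 251 and 253 in E2+(2S,6S)-HNK. The ketamine libraries were lowest and those of (2S,6S)-HNK highest. UBE2C fell with ketamine (-0.31 ± 0.026) and E2 (-0.13 ± 0.026) and rose with both metabolites and with 2 combinations. After correction it rose in none and fell in 5. BIRC5 (ENSG00000089685, chromosome 17, 76210267 to 76221717, plus strand), survivin, a part of the chromosomal passenger complex, had 437 and 431 CPM in vehicle, 433 and 432 in E2, 395 and 388 in ketamine, 474 and 477 in (2R,6R)-HNK, and 459 and 457 in (2S,6S)-HNK. E2 with the drugs gave 477 and 466 CPM in E2+ketamine, 453 and 455 in E2+(2R,6R)-HNK, and 402 and 404 in E2+(2S,6S)-HNK. Its largest change was the smallest among the G2/M genes, with values between -0.15 ± 0.022 with ketamine and 0.13 ± 0.022 with (2R,6R)-HNK, and after correction it fell in 4 treatments and rose in none.

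The spindle checkpoint genes BUB1, BUB1B and MAD2L1 fell in all 7 treatments. BUB1B (ENSG00000156970, chromosome 15, 40453224 to 40513324, plus strand), which encodes BUBR1, was at 112 and 112 CPM in vehicle, 65.3 and 61.8 in E2, 73.3 and 70.3 in ketamine, 62.7 and 60.9 in (2R,6R)-HNK, and 69.1 and 71.2 in (2S,6S)-HNK. In the presence of E2 it was at 53.1 and 53.6 CPM in E2+ketamine, 66.5 and 71.0 in E2+(2R,6R)-HNK, and 85.1 and 86.8 in E2+(2S,6S)-HNK. No treated library reached vehicle, and the combination libraries of (2S,6S)-HNK were closest to it. BUB1B fell by 1.07 ± 0.039 on the log2 scale with E2+ketamine and by 0.38 ± 0.037 with E2+(2S,6S)-HNK, and after correction by 0.22 to 0.59. It shares 240 bases of exon with PAK6 on the same strand. BUB1 lay between -1.05 and -0.36 and fell in all 7 after correction. MAD2L1 lay between -0.95 and -0.21 and fell in 5 after correction.

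MKI67 (ENSG00000148773, chromosome 10, 129894923 to 129924687, minus strand), which encodes the proliferation antigen Ki-67, was at 504 and 522 CPM in vehicle, 305 and 309.6 in E2, 305 and 311 in ketamine, 259 and 253 in (2R,6R)-HNK, and 303 and 308 in (2S,6S)-HNK. Its values in the E2 combinations were 242 and 239.5 CPM in E2+ketamine, 291 and 298 in E2+(2R,6R)-HNK, and 309 and 312 in E2+(2S,6S)-HNK. Every treated library was below vehicle by a wide margin compared with the spread of replicates, and E2+ketamine was lowest. The log2 fold change of MKI67 was -0.74 ± 0.025 with E2, -0.73 ± 0.025 with ketamine, -1.003 ± 0.025 with (2R,6R)-HNK, -0.75 ± 0.025 with (2S,6S)-HNK and -1.09 ± 0.025 with E2+ketamine (adjusted p of 1.03e-29 or less in all 7, edgeR quasi-likelihood test, Benjamini-Hochberg). The exons of MKI67 have a GC content near the median of all genes (48.2%), and its corrected values were close to the counted ones, from -0.96 to -0.68. TOP2A, which untangles chromosomes and has exons of 38.7% GC, fell by 0.40 to 0.94 as counted, and in 5 treatments after correction, at most by 0.33.

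CENPF (ENSG00000117724, chromosome 1, 214776528 to 214837917, plus strand), a large protein of the outer kinetochore, was at 164 and 175 CPM in vehicle, 104 and 97.7 in E2, 84.2 and 84.4 in ketamine, 83.8 and 81.4 in (2R,6R)-HNK, and 91.3 and 88.6 in (2S,6S)-HNK. Combined with E2, the drug libraries held 85.2 and 79.9 CPM in E2+ketamine, 80.5 and 84.9 in E2+(2R,6R)-HNK, and 87.6 and 86.9 in E2+(2S,6S)-HNK. The E2 libraries were nearest to vehicle and the drug libraries lay close together below them. Its log2 fold change was -1.04 ± 0.037 with (2R,6R)-HNK, -1.01 ± 0.036 with ketamine and -0.75 ± 0.036 with E2, and between -0.68 and -0.30 after correction. KIF11 (ENSG00000138160, chromosome 10, 94333862 to 94415152, plus strand), the kinesin that pushes spindle poles apart, was at 148 and 153 CPM in vehicle, 81.0 and 77.7 in E2, 83.8 and 82.5 in ketamine, 77.2 and 78.2 in (2R,6R)-HNK, and 74.0 and 70.1 in (2S,6S)-HNK. With E2 the KIF11 libraries were at 66.2 and 68.2 CPM in E2+ketamine, 68.6 and 69.4 in E2+(2R,6R)-HNK, and 86.2 and 86.9 in E2+(2S,6S)-HNK. All 14 treated libraries were below both vehicle libraries. The log2 fold change of KIF11 ran from -0.79 ± 0.035 to -1.16 ± 0.036, and -0.46 to -0.64 after correction. CENPE, a kinetochore kinesin with the lowest GC content of the 50, fell in all 7 as counted (-0.24 to -0.67), but after correction fell in 2 and rose in 3. KIF20A and KIF23, kinesins of the last stage of division, fell in all 7 (down to -0.59 and -0.76), and after correction KIF20A fell in all 7 and KIF23 in 2.

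In vehicle, levels per kilobase of exon differed widely between members. The highest were TPX2 (215 ± 3.75 CPM per kilobase, SD, n = 2), UBE2C (204 ± 3.51) and CCNB1 (169 ± 3.42), followed by CDC20 (129.7 ± 0.868), PCNA (120.0 ± 0.864), MCM7 (118 ± 1.48), AURKA (118 ± 0.848), MCM3 (115 ± 1.55) and BIRC5 (114 ± 1.08). MCM7 and AURKA lay within each other's spread. The lowest were CENPE (3.27 ± 0.119), E2F2 (4.05 ± 0.127), CCNE1 (5.20 ± 0.00666) and POLA1 (5.51 ± 0.0984). The lengths join all exons annotated to a gene in GENCODE (15547 bases for POLA1), while the authors counted reads on UCSC gene models. They can exceed the length of the transcripts present, so the order of the members depends on them. These levels were not corrected for GC content.

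The G1/S and G2/M genes were then compared as classes. With ketamine, 13 of 26 G1/S genes rose and 11 fell, while 1 of 24 G2/M genes rose and 21 fell, beside 26.8% and 32.5% of all genes. The median log2 fold change was 0.072 for the G1/S genes and -0.43 for the G2/M genes, a difference of -0.51, beside a median of -0.020 for all genes tested. With E2 the counts were 10 up and 13 down for G1/S and 5 up and 18 down for G2/M (29.9% up and 32.7% down over all genes), with medians of -0.075 and -0.38. (2R,6R)-HNK gave 9 up and 13 down against 8 up and 16 down (31.7% and 34.9%), with medians of -0.067 and -0.40. For (2S,6S)-HNK the classes were closer, with 9 up and 15 down against 8 up and 16 down (32.1% and 35.8%), and medians of -0.24 and -0.31. E2+ketamine gave 8 up and 16 down against 7 up and 16 down (34.3% and 37.4% over all genes), with medians of -0.22 and -0.54. The counts for E2+(2R,6R)-HNK were 8 up and 16 down against 7 up and 16 down (33.4% and 36.3% over all genes), with medians of -0.28 and -0.34. Those for E2+(2S,6S)-HNK were 3 up and 20 down against 3 up and 19 down (24.01% and 35.7% over all genes), with medians of -0.27 and -0.23.

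The same was seen in single libraries. The median log2 CPM of the G2/M genes, less that of the vehicle libraries, was -0.44 and -0.43 in the ketamine libraries, where the G1/S median was 0.074 and 0.071. In the (2S,6S)-HNK libraries the G2/M median was -0.32 and -0.30 and the G1/S median -0.28 and -0.23, and in the E2+ketamine libraries they were -0.51 and -0.59 and -0.21 and -0.23. With upper-quartile normalization the G1/S median for (2R,6R)-HNK turned to 0.011, that for ketamine was 0.16 and that for E2 -0.011, and the medians for E2+(2S,6S)-HNK were -0.17 (G1/S) and -0.13 (G2/M). Single libraries moved the smaller differences. The G2/M median less the G1/S median was -0.072 for (2S,6S)-HNK, -0.032 without vehicle 1 and -0.036 without (2S,6S)-HNK 2. For E2+(2R,6R)-HNK it was -0.051, with -0.091 without vehicle 1 and -0.011 without vehicle 2. For E2+(2S,6S)-HNK it was 0.041, with 0.077 without its library 1 and 0.0063 without its library 2. The replicate SD of the difference between classes, pooled over the 8 conditions, was 0.026. After the GC and length correction the difference between the class medians kept its sign for ketamine (-0.26), E2 (-0.086) and (2R,6R)-HNK (-0.10), was -0.0064 for E2+ketamine, and was positive for (2S,6S)-HNK (0.25), E2+(2R,6R)-HNK (0.21) and E2+(2S,6S)-HNK (0.18). Corrected for these trends, the G2/M genes were the more lowered class with ketamine, with medians of -0.060 for G1/S and -0.32 for G2/M, and the G1/S genes with (2S,6S)-HNK, with medians of -0.29 and -0.038.

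**Figure D4:**
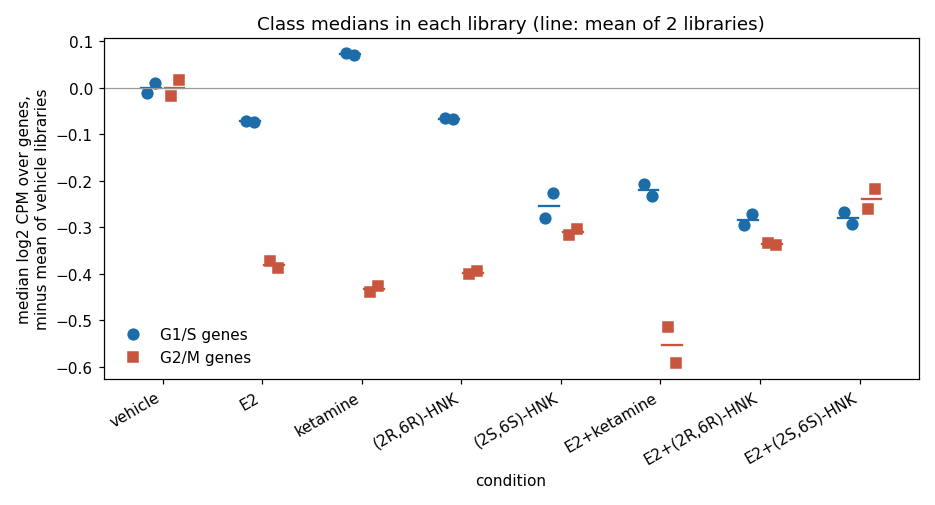
Median log2 CPM over the 26 G1/S genes (blue circles) and the 24 G2/M genes (red squares) in each library, less the mean of the vehicle libraries (vertical axis), under the 8 conditions, as counted, with a line at the mean of 2 libraries. The classes are furthest apart with ketamine and closest with (2S,6S)-HNK, E2+(2S,6S)-HNK and E2+(2R,6R)-HNK, and both classes are below vehicle in all treatments but ketamine, where the G1/S genes are above it.

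Ketamine and its metabolites were given at the same dose of 400 nM, which allowed 6 direct comparisons of drugs, 3 without and 3 with E2. (2R,6R)-HNK and (2S,6S)-HNK differ only in their configuration at ring carbons, and ketamine lacks their hydroxyl group and carries a methyl group on its nitrogen. A gene was counted as higher or lower where its adjusted p was under 0.05 in the same test. Between the stereoisomers, 20 of the 50 genes were higher and 25 lower with (2S,6S)-HNK, where 22.4% and 21.04% of all genes were. The classes went apart: 21 of 26 G1/S genes were lower and 3 higher, with a median of -0.18, and 17 of 24 G2/M genes were higher and 4 lower, with a median of 0.13. MCM5 was lower with (2S,6S)-HNK than with (2R,6R)-HNK (log2 difference -0.44 ± 0.025) and so was MCM4 (-0.32 ± 0.023), whereas CDK1 was higher by 0.35 ± 0.038 and MKI67 by 0.25 ± 0.025 (adjusted p of 5.30e-11 or less, edgeR quasi-likelihood test, Benjamini-Hochberg). CCND1 was lower (-0.22 ± 0.027) and CDK6 higher by 0.15 ± 0.033. CCNB1 differed by 0.0046 ± 0.026, with a 95% interval of -0.048 to 0.057, and did not pass the test. The class medians kept their signs after correction (-0.23 and 0.11), as did MCM5 (-0.47), MCM4 (-0.38), CDK1 (0.31), MKI67 (0.19), CCND1 (-0.25) and CDK6 (0.081).

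Compared with ketamine, (2S,6S)-HNK gave 21 genes higher and 19 lower (24.2% and 21.95% of all genes). Of the G1/S genes 18 were lower and 3 higher (median -0.28), and of the G2/M genes 18 were higher and 1, KIF11, lower (median 0.21). After correction these medians were -0.21 and 0.25. MCM4 was lower with (2S,6S)-HNK (-0.59 ± 0.023), as were CCND1 (-0.45 ± 0.027) and RRM1 (-0.36 ± 0.027), and UBE2C (0.52 ± 0.026) and PLK1 (0.37 ± 0.026) were higher. Corrected, these 5 were -0.51, -0.51, -0.25, 0.48 and 0.24. MKI67 differed by -0.013 ± 0.025 (95% interval -0.063 to 0.037) and BUB1B by -0.034 ± 0.039 (95% interval -0.11 to 0.044), neither past the test. (2R,6R)-HNK against ketamine gave 19 higher and 20 lower (22.6% and 22.8% of all genes), with medians of -0.091 for G1/S and 0.082 for G2/M, and -0.041 and 0.15 after correction. CDK6 was lower with (2R,6R)-HNK (-0.53 ± 0.032) and PLK1 higher (0.44 ± 0.026), while CENPF differed by -0.029 ± 0.037 (95% interval -0.10 to 0.046). Corrected, CDK6 was at -0.30 and PLK1 at 0.34, and CENPF was higher with (2R,6R)-HNK (0.20).

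In the presence of E2, 26 genes were higher and 18 lower with (2S,6S)-HNK than with (2R,6R)-HNK (24.96% and 29.1% of all genes). The split of the classes seen without E2 was not seen here, with medians of 0.092 for G1/S and 0.067 for G2/M, and 0.059 and -0.055 after correction. CDK1 was higher with E2+(2S,6S)-HNK (0.60 ± 0.036) and CCND3 lower (-0.40 ± 0.028), or 0.19 and -0.15 after correction. E2+(2S,6S)-HNK against E2+ketamine gave 25 higher and 21 lower (35.04% and 31.7% of all genes), with differences of 0.86 ± 0.037 for CDK1 and -0.92 ± 0.028 for CCND3 (0.39 and -0.59 after correction), and medians of -0.13 and 0.26, or -0.055 and 0.071 after correction. E2+(2R,6R)-HNK against E2+ketamine gave 21 higher and 18 lower (26.7% and 25.3% of all genes), with medians of -0.13 and 0.12, or -0.10 and 0.11 after correction. KIF11 differed by 0.039 ± 0.037 between those 2 (95% interval -0.036 to 0.11), which did not pass the test, and by -0.10 after correction, which did. The members' differences between E2+(2S,6S)-HNK and E2+(2R,6R)-HNK had a Spearman correlation with GC content of -0.89 over the 50 genes, against -0.27 for the same pair without E2.

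**Figure D5:**
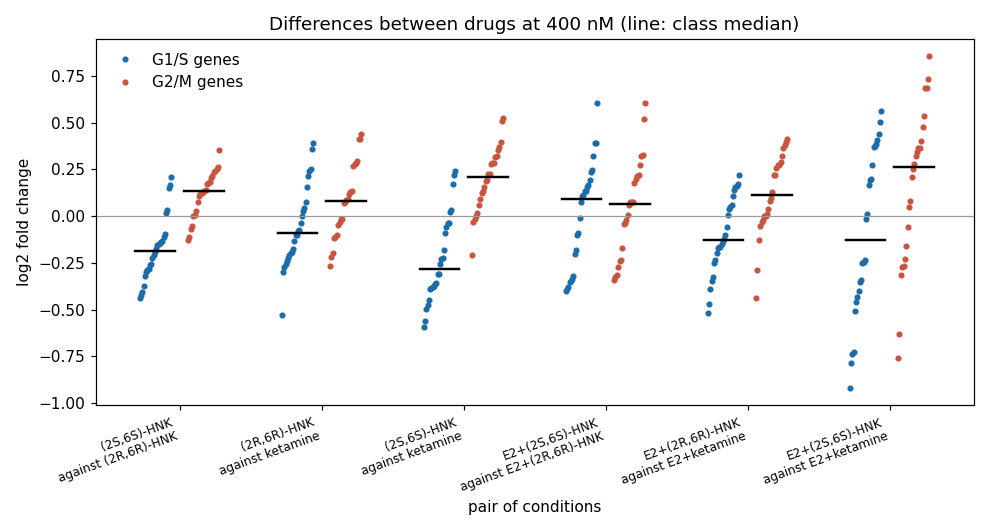
Log2 fold change of each gene (points, sorted within a class) between 2 drugs at 400 nM in 6 pairs of conditions, as counted, with G1/S genes in blue, G2/M genes in red and the class median as a line. Without E2, the G1/S median is below 0 and the G2/M median above 0 in each pair, most clearly for (2S,6S)-HNK against ketamine (-0.28 and 0.21), and the spread of the points is widest for E2+(2S,6S)-HNK against E2+ketamine.

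Whether E2 altered a drug's effect was tested as an interaction, the drug's effect with E2 less its effect without E2. The same vehicle and E2 libraries enter all 3 interactions of a gene, so these are not separate results. Of the 50 genes, 47 passed the test with (2S,6S)-HNK (65.1% of all genes), 47 with (2R,6R)-HNK (56.6%) and 42 with ketamine (37.5%). Over all genes tested, 24.5% had a positive and 13.1% a negative interaction with ketamine, 31.5% and 25.2% with (2R,6R)-HNK, and 32.9% and 32.2% with (2S,6S)-HNK. In the G2/M genes, more of the interactions that passed the test were positive than negative. For ketamine 22 of 24 passed with a positive value and 0 with a negative one, for (2R,6R)-HNK 19 and 3, and for (2S,6S)-HNK 15 and 7. The medians over all 24 genes, passed or not, were 0.39, 0.46 and 0.37. After correction these medians were 0.33, 0.26 and 0.067. In the G1/S genes the medians were -0.13, -0.17 and 0.13, and -0.073, -0.13 and 0.084 after correction. A positive value means that the log2 fold change with E2 and drug together was above the sum of those with each alone, which can be a smaller fall or a larger rise. KIF11, for example, fell by 0.92 with E2, by 0.85 with ketamine and by 1.16 with both on the log2 scale, an interaction of 0.61 ± 0.050 (0.47 after correction). CDK1 fell by 0.88 with E2 and by 0.55 with (2S,6S)-HNK but by 0.094 with both, an interaction of 1.34 ± 0.052. After correction CDK1 had -0.31, 0.049 and 0.20, the middle value not past the test, and an interaction of 0.46. MCM2 rose with E2 (0.42) and with (2R,6R)-HNK (0.59), and with both it rose by 0.26, an interaction of -0.75 ± 0.033 (-0.51 after correction). CCND1 had positive interactions with all 3 drugs (0.42 ± 0.038, 0.31 ± 0.038 and 0.61 ± 0.038), also after correction (0.48, 0.43 and 0.90). As counted, PCNA passed the test with (2S,6S)-HNK alone of the 3 drugs (0.29 ± 0.043), and after correction its interaction was negative and passed with all 3 (-0.16, -0.16 and -0.10).

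Other genes of the same pathways, outside the 50, are given for context. Except for CDKN1A, single genes in this paragraph, and all counts of genes, are given without the GC and length correction. Of 49 other G1/S genes tested, between 27 and 35 fell and between 8 and 16 rose, depending on the treatment, with medians from -0.50 to -0.15 (-0.12 to 0.013 after correction). CDC7, the kinase that fires origins, and USP1, a deubiquitinase of PCNA, changed most among them, with -1.26 and -1.01 under E2+ketamine. Of 55 other G2/M genes, 38 to 48 fell and 3 to 13 rose, with medians from -0.81 to -0.39 (-0.35 to -0.18 after correction). HMMR, a spindle protein, and TTK, the checkpoint kinase MPS1, were at -1.06 and -1.11 with E2+ketamine. With ketamine, 15 of these G1/S genes rose and 27 fell (median -0.15), and 3 of the G2/M genes rose and 48 fell (median -0.54). Over the 7 treatments 24.01% to 34.3% of all genes tested rose and 32.5% to 37.4% fell. Among 10 inhibitors of the cycle, 4 to 7 rose and 2 to 5 fell. CDKN1A, which encodes the CDK inhibitor p21, was at 0.67 ± 0.029 with E2, 0.91 ± 0.028 with ketamine, 0.78 ± 0.029 with (2R,6R)-HNK, 1.002 ± 0.029 with (2S,6S)-HNK and 0.66 ± 0.029 with E2+(2S,6S)-HNK, and rose in all 7. After correction CDKN1A was between 0.34 and 0.68 and passed the test in 7. RBL1, the pocket protein p107, fell in all 7, with -0.48 ± 0.049 with ketamine and -0.99 ± 0.052 with E2+ketamine. Of 13 regulators of the E2F, DREAM and B-MYB complexes, 2 to 6 rose and 3 to 6 fell, and LIN9 and LIN54, core subunits of DREAM, were at -0.93 and -0.93 with E2+ketamine. Of 14 subunits of the anaphase-promoting complex, 8 to 9 fell and 4 to 5 rose, with CDC27 and ANAPC4 at -0.96 and -0.80 under E2+ketamine.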

How the data were processed

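RNA of the line HMC3 was sequenced (16 libraries, 8 conditions). The authors amplified cDNA with the Ovation RNA-seq system, aligned read pairs to hg19 by TopHat2 and Bowtie2, and assigned concordant pairs with 1 mapped place to genes with featureCounts 1.4.6. They deposited raw counts, without normalization. The strand setting is not given in the sources used here.

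Counts were filtered with filterByExpr and normalized by TMM in edgeR 4.0.16 (R 4.3.3). A quasi-likelihood model of the 8 condition means (8 residual degrees of freedom) gave all comparisons and interactions, with Benjamini-Hochberg adjustment over 16004 genes. CPM, counts scaled to library size, use TMM factors. In each library, the correction fitted the deviation of log2 CPM from the gene's mean over all libraries. Loess (span 0.5) was fitted on GC content and then, for what remained, on log2 exon length, from GENCODE models on GRCh37. The fitted values were used as an offset for 94.7% of genes tested, and the others were left uncorrected. Alternatives were DESeq2 1.42.0, the groups compared only, other filters, upper-quartile normalization, the replicate block and single libraries left out; halved counts were added after seeing the data. Scripts were tested on simulated data.

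Members and lists were chosen with earlier results of these data known. Per-library values are given, in each class, for the 4 members with the largest mean absolute change and the 2 whose largest change was smallest, for 6 members called in both directions with the widest range, and for CCND1, CDK4, PCNA, MKI67, CDK1 and CCNB1. In other lists, the 2 genes of largest mean change with at least 5 CPM are named. A further gene chosen as a microglia marker is not reported here. Summed levels over the libraries of 6 neuron markers were 80.5 to 133 CPM and of 5 astrocyte markers 5.96 to 10.9 CPM. These sums differed by condition. The neuron sum was 106 to 108 CPM in vehicle, 132 to 133 in E2+ketamine and 80.5 to 84.8 in E2+(2S,6S)-HNK. Nearly all of it was TUBB3 (median 102 CPM). The medians of SNAP25, SYT1, RBFOX3 and MAP2 were 1.45, 0.393, 0.235 and 0.0287 CPM, and STMN2 had no counts. The astrocyte sum was 6.54 to 7.19 CPM in vehicle, 9.57 to 10.1 in (2S,6S)-HNK and 10.4 to 10.9 in E2+(2R,6R)-HNK. It was mainly ALDH1L1 and SLC1A3 (medians 4.00 and 2.64 CPM), with GFAP at 0.340, S100B at 0.0427 and no counts for AQP4. The part of these markers in the results was not tested.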

Additional observations from a re-analysis of the deposited data

Results flagged for a closer look

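Several of the named genes drew attention because the effect of a drug against its own control differed between cells with and without E2, by the interaction term of the quasi-likelihood fit in edgeR (Benjamini-Hochberg adjusted p under 0.05). Of 66 such terms (22 genes, 3 drugs), 61 passed, 39 positive and 22 negative, where the test passed for 65.1% of all genes with (2S,6S)-HNK, 56.6% with (2R,6R)-HNK and 37.5% with ketamine. The 3 terms of a gene share the vehicle and E2 libraries and are not separate results. After the GC and length correction, 46 kept their sign and passed, and 4 passed with the opposite sign (CCNB1 with (2S,6S)-HNK at -0.37 and with (2R,6R)-HNK at -0.11, PCNA with (2S,6S)-HNK at -0.10 and UBE2C with (2S,6S)-HNK at 0.12). The other 11 no longer passed. They were PLK1 (-0.026), CENPF (0.038), BIRC5 (-0.031), TYMS (0.018) and MCM4 (-0.048) with (2S,6S)-HNK, PLK1 (-0.0092), CDC20 (-0.040), POLA1 (0.048) and TYMS (-0.10) with (2R,6R)-HNK, and POLA1 (0.10) and RRM1 (0.070) with ketamine. CDC20 with (2S,6S)-HNK went to -0.072. The values that follow are log2 differences as counted, with their SE.

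The genes that start the cycle came first in the list. CCND1 had 0.61 ± 0.038 with (2S,6S)-HNK, 0.31 ± 0.038 with (2R,6R)-HNK and 0.42 ± 0.038 with ketamine. For CCND3, the interaction was -0.92 ± 0.040 with (2S,6S)-HNK and -0.89 ± 0.040 with (2R,6R)-HNK, and did not pass the test with ketamine. CDK4 had -0.68 ± 0.035 with (2S,6S)-HNK, -0.48 ± 0.034 with (2R,6R)-HNK and 0.27 ± 0.034 with ketamine. For CDK6, the interaction was 0.92 ± 0.045 with (2S,6S)-HNK and 0.68 ± 0.045 with (2R,6R)-HNK, and did not pass the test with ketamine. CDK2 had 0.15 ± 0.041 with (2S,6S)-HNK, 0.15 ± 0.041 with (2R,6R)-HNK and -0.33 ± 0.041 with ketamine.

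Among the replication genes, the values were mixed. For MCM2, the interaction was -0.85 ± 0.033 with (2S,6S)-HNK, -0.75 ± 0.033 with (2R,6R)-HNK and -0.15 ± 0.033 with ketamine. MCM4 had 0.11 ± 0.032 with (2S,6S)-HNK, -0.34 ± 0.032 with (2R,6R)-HNK and -0.47 ± 0.032 with ketamine. For MCM5, the interaction was -0.81 ± 0.035 with (2S,6S)-HNK, -0.93 ± 0.035 with (2R,6R)-HNK and -0.24 ± 0.035 with ketamine. PCNA had 0.29 ± 0.043 with (2S,6S)-HNK, and did not pass the test with (2R,6R)-HNK or ketamine. For RRM1, the interaction was 1.08 ± 0.039 with (2S,6S)-HNK, 0.54 ± 0.039 with (2R,6R)-HNK and 0.16 ± 0.039 with ketamine. TYMS had -0.15 ± 0.063 with (2S,6S)-HNK, -0.22 ± 0.062 with (2R,6R)-HNK and -0.28 ± 0.062 with ketamine. For POLA1, the interaction was 0.97 ± 0.059 with (2S,6S)-HNK, 0.59 ± 0.058 with (2R,6R)-HNK and 0.21 ± 0.058 with ketamine.

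In the mitotic genes, most values were positive. CDK1 had 1.34 ± 0.052 with (2S,6S)-HNK, 1.09 ± 0.053 with (2R,6R)-HNK and 0.64 ± 0.053 with ketamine. For CCNB1, the interaction was 0.14 ± 0.037 with (2S,6S)-HNK, 0.18 ± 0.037 with (2R,6R)-HNK and 0.48 ± 0.037 with ketamine. CDC20 had -0.56 ± 0.037 with (2S,6S)-HNK, -0.37 ± 0.037 with (2R,6R)-HNK and 0.48 ± 0.037 with ketamine. For UBE2C, the interaction was -0.13 ± 0.036 with (2S,6S)-HNK, 0.22 ± 0.036 with (2R,6R)-HNK and 0.55 ± 0.036 with ketamine. PLK1 had -0.55 ± 0.037 with (2S,6S)-HNK, -0.28 ± 0.036 with (2R,6R)-HNK and 0.45 ± 0.037 with ketamine. For BIRC5, the interaction was -0.18 ± 0.032 with (2S,6S)-HNK and 0.27 ± 0.032 with ketamine, and did not pass the test with (2R,6R)-HNK. BUB1B had 1.11 ± 0.055 with (2S,6S)-HNK, 0.97 ± 0.055 with (2R,6R)-HNK and 0.39 ± 0.055 with ketamine. For MKI67, the interaction was 0.76 ± 0.035 with (2S,6S)-HNK, 0.94 ± 0.035 with (2R,6R)-HNK and 0.38 ± 0.035 with ketamine. CENPF had 0.71 ± 0.052 with (2S,6S)-HNK, 0.75 ± 0.052 with (2R,6R)-HNK and 0.72 ± 0.052 with ketamine. For KIF11, the interaction was 1.18 ± 0.051 with (2S,6S)-HNK, 0.75 ± 0.050 with (2R,6R)-HNK and 0.61 ± 0.050 with ketamine.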

How the results depend on the processing

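The GC and length correction changed the most. It lowered the number of members that rose to 8 (E2), 9 (ketamine), 9 ((2R,6R)-HNK), 8 ((2S,6S)-HNK), 8 (E2+ketamine) and 6 (E2+(2R,6R)-HNK), and moved the G2/M median less the G1/S median to -0.086 (E2), -0.26 (ketamine), -0.10 ((2R,6R)-HNK), 0.25 ((2S,6S)-HNK), -0.0064 (E2+ketamine), 0.21 (E2+(2R,6R)-HNK) and 0.18 (E2+(2S,6S)-HNK). Among the named genes it turned CDC20 to -0.16 (E2), -0.16 ((2R,6R)-HNK), -0.23 ((2S,6S)-HNK), -0.079 (E2+ketamine) and -0.36 (E2+(2R,6R)-HNK), PLK1 to -0.15 (E2), -0.14 ((2R,6R)-HNK), -0.24 ((2S,6S)-HNK), -0.094 (E2+ketamine) and -0.30 (E2+(2R,6R)-HNK), PCNA to 0.026 (E2), 0.18 ((2R,6R)-HNK), 0.13 ((2S,6S)-HNK), 0.065 (E2+ketamine), 0.048 (E2+(2R,6R)-HNK) and 0.057 (E2+(2S,6S)-HNK), CCNB1 to 0.057 (E2), 0.24 ((2R,6R)-HNK), 0.28 ((2S,6S)-HNK), 0.29 (E2+ketamine) and 0.18 (E2+(2R,6R)-HNK), CCND3 to -0.15 (ketamine), -0.26 ((2S,6S)-HNK) and -0.37 (E2+(2R,6R)-HNK) and CDK4 to -0.0098 (ketamine). It also turned UBE2C to -0.15 ((2R,6R)-HNK), -0.22 (E2+ketamine) and -0.027 (E2+(2R,6R)-HNK), MCM4 to 0.088 ((2R,6R)-HNK), BIRC5 to -0.041 ((2S,6S)-HNK), -0.0087 (E2+ketamine) and -0.061 (E2+(2R,6R)-HNK), MCM5 to -0.20 ((2S,6S)-HNK) and -0.27 (E2+(2R,6R)-HNK), MCM2 to -0.085 ((2S,6S)-HNK) and -0.15 (E2+(2R,6R)-HNK) and CDK1 to 0.049 ((2S,6S)-HNK), 0.0086 (E2+(2R,6R)-HNK) and 0.20 (E2+(2S,6S)-HNK). With the replicate block added to the correction, these values stayed within 0.01, such as CDK4 at -0.0099 (ketamine), CDK1 at 0.0092 (E2+(2R,6R)-HNK) and a class difference of -0.0062 (E2+ketamine). The cause was not tested.

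Of 2002 values of the named genes under alternatives, 1855 kept direction and call. Upper-quartile normalization raised the median of all genes by up to 0.1 (from -0.064 to 0.040 for E2+(2S,6S)-HNK) and turned BIRC5 to 0.060 (E2), PCNA to 0.021 and CDK1 to 0.011 (both E2+(2S,6S)-HNK). With DESeq2, CDK1 and PCNA under E2+(2S,6S)-HNK (-0.077 and -0.067) and CDK2 with (2R,6R)-HNK (-0.045) no longer passed, the last also with upper-quartile normalization (-0.0065). When single libraries were left out, the difference between the classes ranged over -0.55 to -0.47 (ketamine), -0.094 to -0.032 ((2S,6S)-HNK), -0.36 to -0.31 (E2+ketamine), -0.091 to -0.011 (E2+(2R,6R)-HNK) and 0.0063 to 0.077 (E2+(2S,6S)-HNK), and 12 calls were lost. These were CDK2 with (2R,6R)-HNK without vehicle 2 (-0.071) or (2R,6R)-HNK 1 (-0.077), CDK2 with (2S,6S)-HNK without vehicle 1 (0.066) or (2S,6S)-HNK 2 (0.069), TYMS with E2+(2R,6R)-HNK without vehicle 2 (-0.12) or its library 2 (-0.093), BIRC5 with E2+(2R,6R)-HNK without the same libraries (0.056 and 0.062), and PCNA and CDK1 with E2+(2S,6S)-HNK as given with them. The lone library left was then assumed to vary like those of the other groups. With the replicate block, 31 members fell with E2, as without it, and no count moved by over 1.5 times. Same-numbered libraries did not deviate together (r from -0.026 to 0.045), so the numbers were not taken as pairs. No filter, at least 10 counts in every library and halved counts turned no value, but TYMS with E2 gained a call with at least 10 counts (0.10) and with halved counts (0.10), as did CDK2 with E2+(2R,6R)-HNK with at least 10 counts (0.069). Each member had at least 602 counts in every library, and SEs were larger for members with fewer counts, such as 0.081 for CCNE1 against 0.022 for MCM7 with E2.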
